A study of Mus musculus with 12 samples.

Results

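The transcripts of 10 enzymes that break down the branched-chain amino acids leucine, isoleucine and valine were followed in mouse myocardium, the muscle of the heart. The members were taken by symbol from the deposited transcript table (Bcat2, Bckdha, Bckdhb, Dbt, Bckdk, Ppm1k, Ivd, Mccc1, Mccc2 and Hibadh), and they make 10 of its 33641 genes. All 10 passed the filter on low values, which kept 13158 genes. The 12 libraries came from male C57BL/6 wild-type mice, 3 in each of 4 groups: sham surgery with vehicle, sham surgery with prednisone, myocardial infarction (MI) with vehicle, and MI with prednisone. Prednisone, a synthetic glucocorticoid, was injected into the peritoneum at 1 mg/kg at lights-on (ZT0), once a week for 6 weeks. Dosing began 2 weeks after the operation, and hearts were collected 24 hours after the last dose. The labels give an age of about 10 weeks in the protocol and about 16 weeks among the sample details, and do not say whether infarcted or remote muscle was taken.

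Branched-chain amino acids are first stripped of their amino group by the mitochondrial aminotransferase Bcat2. The resulting keto acids then enter the branched-chain keto acid dehydrogenase complex, the committed step, which is switched off when the kinase Bckdk phosphorylates it and on when the phosphatase Ppm1k removes the phosphate. Separate routes then carry the carbon of leucine (Ivd, Mccc1 and Mccc2 among others) and of valine (Hibadh among others) towards acetyl-CoA and propionyl-CoA. The heart oxidises these keto acids, and lower expression of the pathway has been described in failing hearts.

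The values are TPM, a transcript abundance that is divided by transcript length and expressed as a share of the library. A member was called when the adjusted p of limma, a linear model fitted to log2(TPM + 1) over all 12 libraries and adjusted by the Benjamini-Hochberg method over the 13158 genes, was under 0.05. Changes are log2 differences on that scale with their standard error (SE). Each library held between 11690 and 14307 genes at 1 TPM or more, and mitochondrially encoded RNA took from 21.6% to 42.0% of it. The median gene was 0.39 higher in MI than in sham hearts under vehicle and 0.41 lower with prednisone than with vehicle in MI (log2 change -0.41). After rescaling each library by the median ratio of its genes to their means over libraries, those medians were 0.02 and -0.02, and the calls turned from 1981 higher and 119 lower to 490 and 489 in the first comparison, and from 329 higher and 4588 lower to 1917 and 1870 in the second. Between MI and sham under prednisone the split moved from 359 higher and 1854 lower to 1536 and 1881, and for the interaction from 71 and 2726 to 674 and 649. Both scales are therefore given for the members. The labels give no sequencing batch or date. MI vehicle replicate 3 had the largest rescaling factor, 1.65, against 0.871 to 1.14 in the other 11 libraries.

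The labelled tissue was checked against marker genes. The summed TPM of 8 cardiomyocyte markers was 32258 to 34062 in sham vehicle, 33232 to 38327 in sham prednisone, 22965 to 28736 in MI vehicle and 33057 to 35778 in MI prednisone. Summed fibroblast markers were 392 to 529, 445 to 531, 934 to 1269 and 343 to 595 TPM in the same order, with all 8 of 8 called higher in MI than in sham under vehicle and 7 of 8 called lower with prednisone in MI. Macrophage markers summed to 228 to 334, 267 to 354, 525 to 1217 and 258 to 489 TPM. Markers of atrial muscle (Myl7, Sln, Myl4 and Bmp10) summed to 377 to 1178, 970 to 1245, 127 to 894 and 1522 to 1940 TPM, so that the MI prednisone libraries, in which Dbt, Ppm1k and Ivd were lowest, lay above all others. With prednisone in MI, 3 of the 4 atrial genes were called higher (median 2.01, and 2.46 after rescaling), and in MI against sham under prednisone 0 of 4 were called (median 0.74). No marker of these lists was at 0 in all libraries. In bulk tissue, fewer cardiomyocytes and less RNA per cardiomyocyte cannot be told apart, and the part of cell composition, or of atrial muscle in the sample, in the results below was not tested.

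In gene sums of TPM as deposited, the E2 core gene Dbt, the phosphatase gene Ppm1k and the leucine-route gene Ivd fell most among the members. These falls were in infarcted hearts given prednisone, and Bckdhb was lowest in infarcted hearts given vehicle. After rescaling, Bckdhb in MI against sham under vehicle (-0.94) fell more than Dbt (-0.81) or Ivd (-0.77) under prednisone. With only transcripts annotated as coding, Mccc1 (-0.94) fell more than Dbt (-0.88) or Ivd (-0.71) in MI against sham under prednisone. In MI against sham under vehicle, 2 of 10 members were called, both lower, Bckdhb and Ppm1k, where limma called 16.0% of all genes, 15.1% higher and 0.904% lower. In MI against sham under prednisone, 4 were called, all lower (Ppm1k, Dbt, Ivd and Hibadh), against 16.8% of all genes, 2.73% higher and 14.1% lower. With prednisone against vehicle in MI hearts, 5 were called, Ppm1k, Dbt, Ivd and Hibadh lower and Bckdhb higher, against 37.4% of all genes, 2.50% higher and 34.9% lower. In sham hearts prednisone moved none of the 10 past the threshold, where 0.114% of all genes were called. The smallest unadjusted p among the members there was 0.217, so that 0 of 10 were under 0.05 before adjustment, against 469 of the 13158 genes. With only the groups compared in the fit, 0 members were called in MI against sham under vehicle and with prednisone in MI, where limma called 2 and 808 of all genes. The comparisons share libraries in pairs and are not independent of each other.

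**Figure D1:**
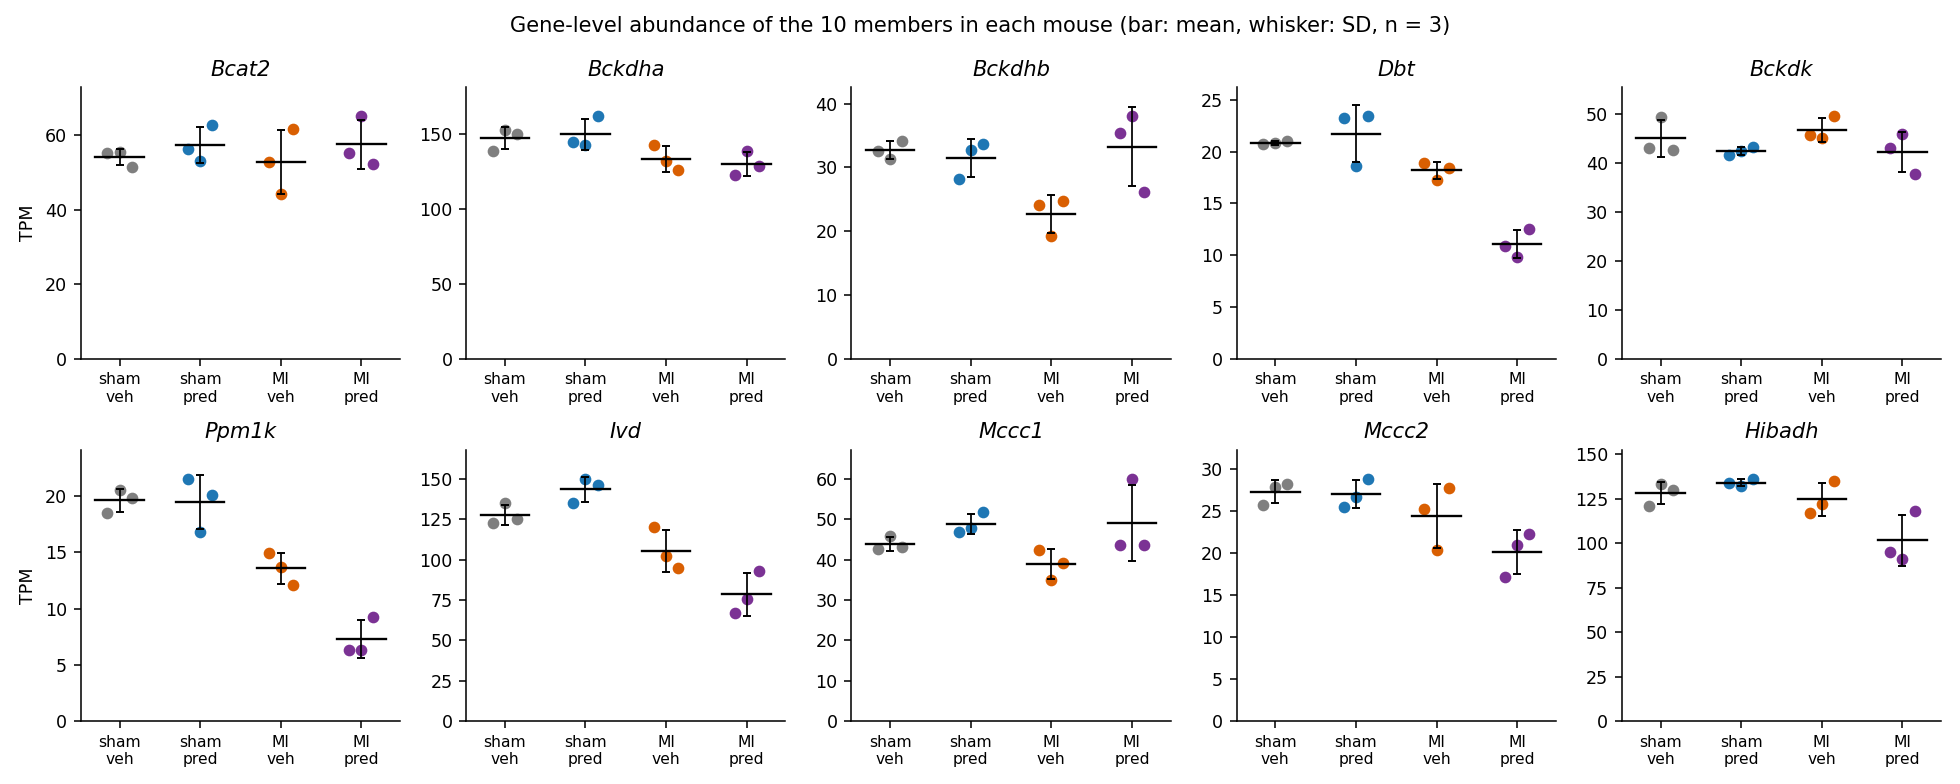
TPM of each member (vertical axes, from 0) in the 12 libraries, 3 mice per group; points are mice, bars are group means and whiskers are SD. Ppm1k, Dbt and Ivd sit lowest in the MI prednisone libraries, and Bckdhb sits lowest in the MI vehicle libraries.

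Bcat2, the mitochondrial aminotransferase that opens the pathway (chromosome 7, 45570153 to 45589711, plus strand, GRCm38), varied between 44.3 and 65.1 TPM over the study. It stood at 55.3, 55.4 and 51.6 TPM in the sham vehicle mice, 56.4, 53.1 and 62.7 in the sham prednisone mice, 52.7, 44.3 and 61.6 in the MI vehicle mice, and 55.2, 65.1 and 52.4 in the MI prednisone mice. All 4 groups overlapped, and no comparison of TPM as deposited was called.

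The keto acid dehydrogenase complex is built from an E1 decarboxylase of alpha and beta subunits (Bckdha and Bckdhb), an E2 transacylase core (Dbt) and an E3 subunit shared with other complexes. Bckdha was the most abundant member with a mean of 140 TPM over the 12 libraries, and Ppm1k the least with 15.0. The E1 alpha gene (chromosome 7, 25629946 to 25658981, minus strand) ranged from 139 to 153 TPM in sham vehicle, 143 to 162 in sham prednisone, 126 to 143 in MI vehicle and 123 to 139 in MI prednisone, and was called in no comparison of the TPM as deposited. Its MI prednisone values lay below all 3 sham prednisone values, the difference being -0.20 in log2 (SE 0.09, limma adjusted p = 0.162).

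Bckdhb, the E1 beta subunit (chromosome 9, 83925145 to 84124240, plus strand), was lower in infarcted hearts given vehicle than in the other groups. The libraries held 32.6, 31.3 and 34.2 TPM in the sham vehicle mice, 28.1, 32.7 and 33.6 in the sham prednisone mice, 24.1, 19.3 and 24.7 in the MI vehicle mice, and 35.4, 38.0 and 26.2 in the MI prednisone mice. No MI vehicle mouse reached the lowest mouse of another group. MI against sham under vehicle gave -0.51 in log2 (SE 0.15, limma adjusted p = 0.0418), and prednisone against vehicle in MI gave 0.52 (SE 0.15, limma adjusted p = 0.0190). Without any 1 of sham vehicle replicates 1, 2 or 3 or of MI vehicle replicates 2 or 3 the first call was lost, and without MI vehicle replicate 2 or MI prednisone replicate 1 or 2 the second was lost, the changes staying within -0.58 to -0.41 and 0.41 to 0.68. The rise with prednisone lay in a short transcript described below: with only transcripts annotated as coding it was -0.05. In that form MI against sham under prednisone was called lower at -0.43, where the gene sum gave 0.06.

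Dbt, the E2 core that carries the lipoyl arm between the active sites (chromosome 3, 116513070 to 116549981, plus strand), had 20.7, 20.8 and 21.0 TPM in sham vehicle and 23.2, 18.6 and 23.4 in sham prednisone. MI vehicle libraries held 18.9, 17.3 and 18.4 TPM, and MI prednisone libraries 10.9, 9.86 and 12.5. The 3 MI prednisone mice were below all other 9. The MI prednisone mean was 11.1 ± 1.35 TPM (SD, n = 3) against 21.7 ± 2.71 in sham prednisone, or -0.91 in log2 (SE 0.12, limma adjusted p = 0.00156). Against MI vehicle, at 18.2 ± 0.802 TPM, it was -0.67 (SE 0.12, limma adjusted p = 0.00246). MI against sham under vehicle gave -0.18 (SE 0.12, limma adjusted p = 0.238).

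In gene sums of TPM as deposited, calls fell on the phosphatase Ppm1k and not on the kinase Bckdk. With prednisone in MI their most abundant transcripts changed alike, Bckdk-202 at -0.49 and Ppm1k-201 at -0.48 (limma adjusted p = 0.0230 and 0.0208). Bckdk, the inactivating kinase (chromosome 7, 127904082 to 127910221, plus strand), kept to 43.0, 49.3 and 42.7 TPM in the sham vehicle mice, 41.7, 42.4 and 43.2 in the sham prednisone mice, 45.7, 45.0 and 49.5 in the MI vehicle mice, and 43.0, 45.8 and 37.8 in the MI prednisone mice. It was the member with the narrowest range, 1.31-fold from the lowest to the highest library, and was called in no comparison under either scale. Ppm1k, the activating phosphatase (chromosome 6, 57506502 to 57535468, minus strand), had the widest, 3.41-fold.

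Ppm1k stood at 18.5, 20.5 and 19.8 TPM in sham vehicle and 21.5, 16.8 and 20.1 in sham prednisone. In MI vehicle it stood at 14.9, 13.7 and 12.1, and in MI prednisone at 6.36, 6.29 and 9.24. The sham groups overlapped each other, MI vehicle lay wholly below both, and MI prednisone lay wholly below MI vehicle. The change was -0.50 in MI against sham under vehicle (SE 0.15, limma adjusted p = 0.0484), a call lost without any 1 of sham vehicle replicates 1, 2 or 3 or of MI vehicle replicates 2 or 3. Under prednisone MI against sham gave -1.31 (SE 0.15, limma adjusted p = 0.00118), and prednisone against vehicle in MI gave -0.83 (SE 0.15, limma adjusted p = 0.00302). Both of the latter calls held when any 1 of the mice compared was left out, and over the mice left out the change in MI against sham under vehicle ran from -0.57 to -0.43.

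Since scaling a library moves both genes alike, the ratio of kinase to phosphatase within a library does not depend on it. A trend with transcript length does enter the ratio, as Bckdk averaged 1974 bases and Ppm1k 4369. With prednisone in MI the median gene changed by -0.26 at 1000 to 2000 bases and by -0.67 at 4000 to 8000. In MI against sham under vehicle both medians were 0.39. The part of length in the ratio was not tested. Bckdk TPM over Ppm1k TPM was 2.33, 2.41 and 2.15 in the sham vehicle mice, 1.94, 2.53 and 2.15 in the sham prednisone mice, 3.06, 3.28 and 4.11 in the MI vehicle mice, and 6.75, 7.28 and 4.09 in the MI prednisone mice. All 6 infarcted hearts were above all 6 sham hearts, while the MI groups overlapped through MI prednisone replicate 3. With only the most abundant transcript of each gene, a form chosen after the values were seen, the ratio was 1.90, 2.03 and 1.63 in the sham vehicle mice, 1.75, 1.83 and 1.89 in the sham prednisone mice, 2.66, 3.08 and 3.38 in the MI vehicle mice, and 3.13, 3.02 and 3.14 in the MI prednisone mice. In this form the infarcted hearts again lay above the sham hearts, and the means of the MI groups were 3.04 ± 0.361 with vehicle and 3.10 ± 0.0689 with prednisone (SD, n = 3). These ratios are descriptions with no test.

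**Figure D2:**
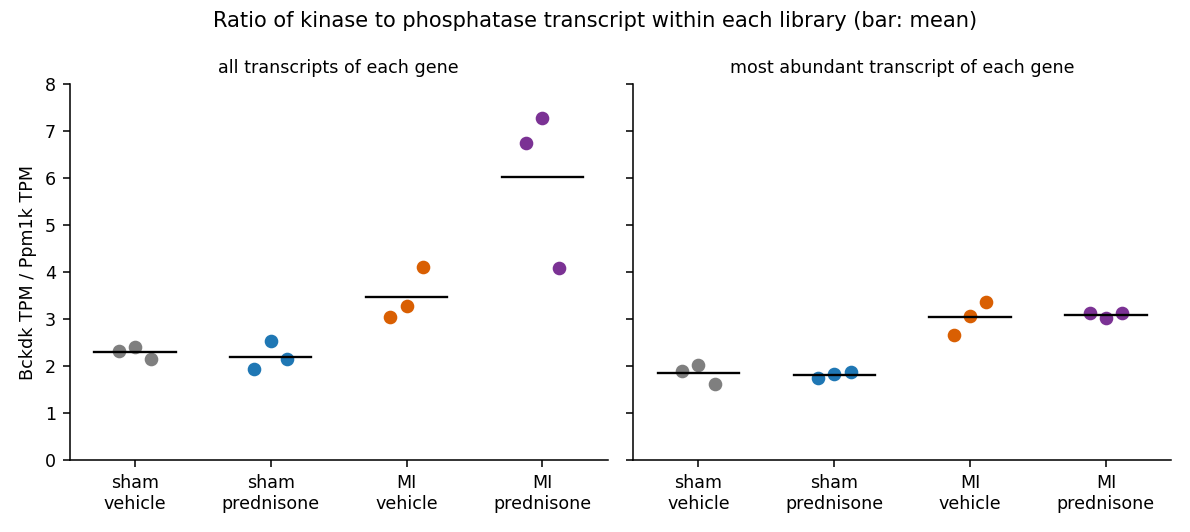
Ratio of Bckdk to Ppm1k TPM within each library (vertical axis) by group, from all transcripts of each gene (left) and from the most abundant transcript of each (right); points are mice and bars are means. All MI points lie above all sham points in both panels, and the gap between the MI groups on the left is not seen on the right.

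The ratio of Bckdk to Bckdha, kinase to substrate subunit, ran from 0.267 to 0.323 in the sham hearts, 0.320 to 0.393 in MI vehicle and 0.294 to 0.350 in MI prednisone, with overlap between sham and MI. Within the complex itself, the ratio of E1 alpha to E1 beta (Bckdha to Bckdhb) was 5.92, 6.84 and 5.12 in MI vehicle against 4.28 to 5.15 in the sham hearts and 3.46, 3.65 and 4.91 in MI prednisone. The ratio of E1 alpha to E2 (Bckdha to Dbt, chosen after the values were seen) was 6.25 to 7.71 in the other 9 libraries and 11.3, 14.1 and 10.3 in MI prednisone. The ratio of E3 to E2 (Dld to Dbt, also not among the planned ratios) moved less. It ran from 6.95 to 8.58 in the other 9 libraries and was 8.47, 8.51 and 8.91 in MI prednisone. These ranges overlapped. The Bckdhb sum in MI prednisone includes the non-coding transcript Bckdhb-203 described below. Bckdha averaged 1898 bases and Dbt 2963, and the part of transcript length in their ratio was not tested. These ratios have no test.

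Of the 3 members in the leucine route, Ivd alone was called for TPM as deposited. Ivd, isovaleryl-CoA dehydrogenase (chromosome 2, 118861954 to 118882909, plus strand), held 123, 135 and 125 TPM in sham vehicle and 135, 150 and 146 in sham prednisone. It held 120, 102 and 94.6 in MI vehicle and 66.8, 75.4 and 93.2 in MI prednisone. All MI mice were below all sham mice, and MI prednisone was wholly below MI vehicle by a margin of 94.6 against 93.2 TPM. The change was -0.88 in MI against sham under prednisone (SE 0.13, limma adjusted p = 0.00216), -0.43 with prednisone against vehicle in MI (SE 0.13, limma adjusted p = 0.0250), and -0.28 in MI against sham under vehicle (SE 0.13, limma adjusted p = 0.126). The middle call was lost without MI vehicle replicate 1 or MI prednisone replicate 1 or 2, at -0.56 to -0.32 over the mice left out, and the last became a call without MI vehicle replicate 1, at -0.37 to -0.20.

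Mccc1 and Mccc2 encode the biotin-carrying alpha and the beta subunit of methylcrotonyl-CoA carboxylase, the step after Ivd. Mccc1 (chromosome 3, 35959312 to 36000678, minus strand) was at 42.6, 45.9 and 43.2 TPM in the sham vehicle mice, 46.9, 47.8 and 51.7 in the sham prednisone mice, 42.5, 35.1 and 39.3 in the MI vehicle mice, and 43.6, 60.0 and 43.7 in the MI prednisone mice. Mccc2 (chromosome 13, 99948530 to 100015639, minus strand) was at 25.7, 27.9 and 28.2, then 25.5, 26.7 and 28.8, then 25.2, 20.3 and 27.7, and then 17.2, 20.9 and 22.3 TPM in the same order. MI prednisone lay above MI vehicle for Mccc1 and below both sham groups for Mccc2. Neither subunit was called in a comparison of the TPM as deposited, the nearest being Mccc2 in MI against sham under prednisone at -0.41 (SE 0.13, limma adjusted p = 0.0571) and Mccc1 with prednisone in MI at 0.31 (SE 0.13, limma adjusted p = 0.0773). Mccc2 was called there without MI prednisone replicate 3, at -0.48 to -0.31 over the mice left out, and with prednisone in MI without MI vehicle replicate 2, at -0.38 to -0.16. Mccc1 was called without MI vehicle replicate 1, at 0.16 to 0.39. The order of Ivd and Mccc1 turned with the transcripts counted: with coding transcripts only, Mccc1 was at -0.94 and Ivd at -0.71 in MI against sham under prednisone, and at -0.62 and -0.32 with prednisone in MI.

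Hibadh, 3-hydroxyisobutyrate dehydrogenase of the valine route (chromosome 6, 52546228 to 52640389, minus strand), was at 121, 133 and 130 TPM in the sham vehicle mice, 134, 132 and 136 in the sham prednisone mice, 117, 122 and 135 in the MI vehicle mice, and 95.2, 91.3 and 118 in the MI prednisone mice. Its MI prednisone values were below all sham values and overlapped MI vehicle through replicate 3. The change was -0.41 in MI against sham under prednisone (SE 0.11, limma adjusted p = 0.0259) and -0.30 with prednisone in MI (SE 0.11, limma adjusted p = 0.0496). The first call was lost without any 1 of sham prednisone replicates 1, 2 or 3 or of MI prednisone replicates 1 or 2, and the second without MI vehicle replicate 2 or 3 or MI prednisone replicate 1 or 2. Over the mice left out they ran from -0.52 to -0.34 and from -0.41 to -0.23.

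Several of these calls moved with the scale. In MI against sham under vehicle, rescaling gave 5 members called lower (Bcat2, Bckdhb, Ppm1k, Mccc1 and Mccc2) and all 10 with negative changes, with a median of -0.59 against 0.02 over all genes, of which 7.44% were called. On the TPM scale the members' median was -0.17, against 0.39 over all genes. Bckdhb was at -0.94 (limma adjusted p = 0.0208) and Ppm1k at -0.91 (limma adjusted p = 0.0365) after rescaling. A correction of each library for a trend with transcript length gave 4 members called lower, where 5.31% of all genes were called. This correction also took out the shift of all genes, whose median went from 0.39 to -0.02.

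Under prednisone, the falls of Dbt, Ppm1k and Ivd in MI against sham were called on the TPM scale, after rescaling and with the length correction. After rescaling they were -0.81, -1.22 and -0.77, with limma adjusted p of 0.00801, 0.00464 and 0.0252, where 26.0% of all genes were called. With the length correction they were -0.75, -0.99 and -0.73, with limma adjusted p of 0.0161, 0.0123 and 0.0425, where 12.9% were called. Hibadh was called on neither of these scales. The members' median was -0.31 for TPM as deposited and -0.20 after rescaling, against -0.06 and 0.03 over all genes.

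The falls with prednisone in infarcted hearts were not called once the shift of all genes was taken out. After rescaling, Dbt was at -0.24, Ppm1k at -0.41, Ivd at 0.03 and Hibadh at 0.16, none of them called. Called instead were rises of Bckdhb (0.96), Mccc1 (0.76) and Bcat2 (0.58), with limma adjusted p of 0.00305, 0.00728 and 0.00523, where 28.8% of all genes were called. The length correction left the same 3 called higher, at 0.77, 0.73 and 0.45, where 16.4% of all genes were called. The members' median was -0.21 for TPM as deposited, against -0.41 over all genes, and 0.24 after rescaling, against -0.02.

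**Figure D3:**
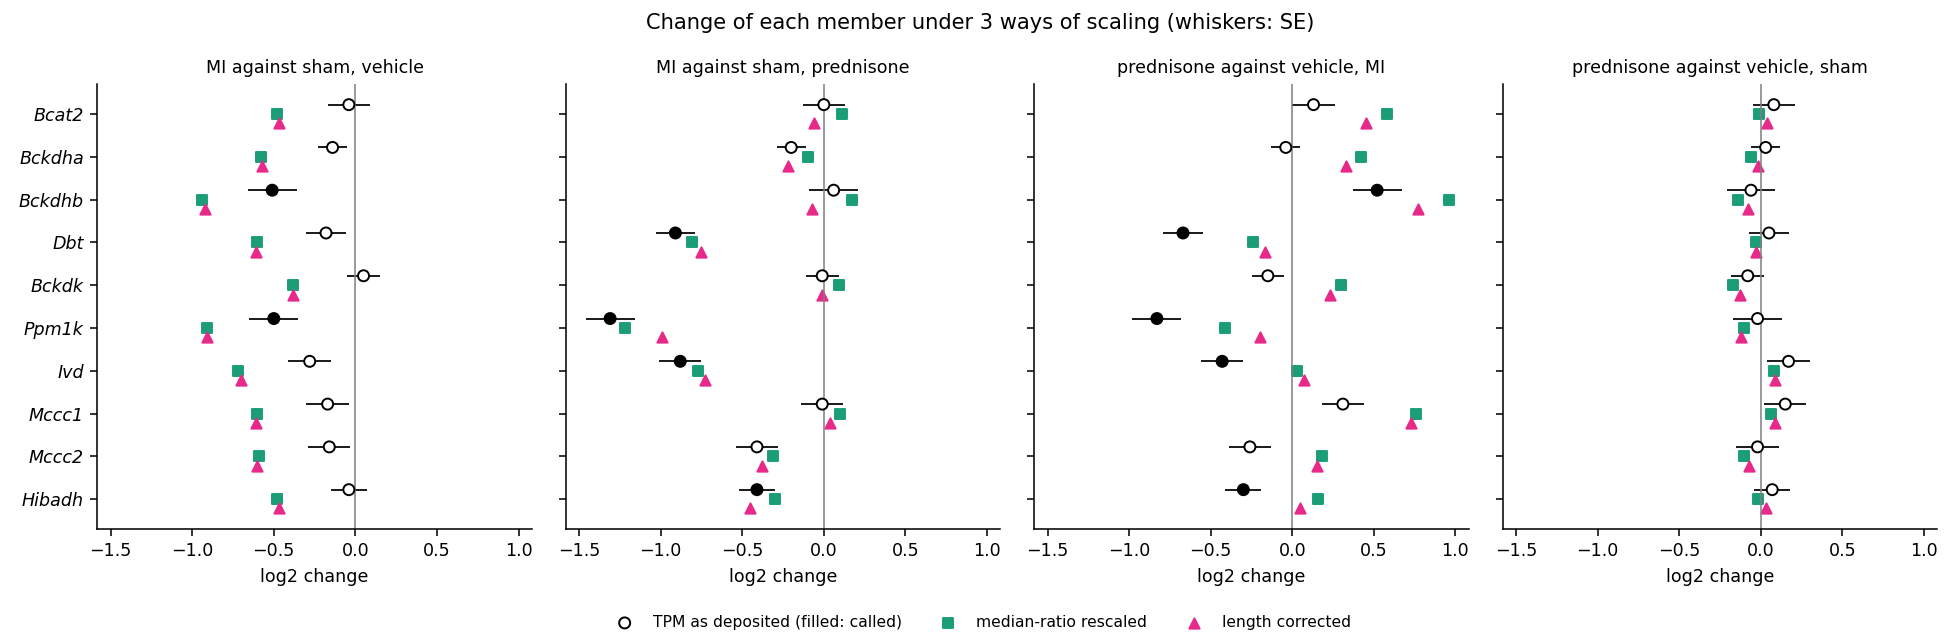
Log2 change of each member (horizontal axes) in 4 comparisons, for TPM as deposited (circles with SE, filled where called), after median-ratio rescaling (squares) and after the length correction (triangles). The markers of Dbt, Ppm1k and Ivd stay left of 0 on all scales in MI against sham under prednisone, whereas the markers move to the right in prednisone against vehicle in MI.

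The interaction asks whether the prednisone effect differed between infarcted and sham hearts. It was called for Dbt at -0.73 (SE 0.17, limma adjusted p = 0.0159), Ppm1k at -0.81 (SE 0.22, limma adjusted p = 0.0263) and Ivd at -0.60 (SE 0.18, limma adjusted p = 0.0406), where 21.3% of all genes were called and 20.7% lower. The call of Dbt held without each of the 12 mice. That of Ppm1k was lost without replicate 1 or 3 of either sham group or replicate 1 or 2 of MI prednisone, at -0.97 to -0.73, and that of Ivd held only without MI vehicle replicate 3 or MI prednisone replicate 3, at -0.73 to -0.49. Without MI prednisone replicate 3, Bckdhb and Hibadh were called as well. After rescaling, the interaction of Dbt, Ppm1k and Ivd was -0.21, -0.31 and -0.06 and not called. Bcat2 at 0.59 and Bckdhb at 1.11 were called higher, where 10.1% of all genes were called. With coding transcripts only, for TPM as deposited, Bcat2 was at -0.07 and Bckdhb at 0.06, neither called. With the length correction no member was called, where 2.04% of all genes were.

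The members with the largest falls in gene sums of TPM as deposited were also the longest. Averaged over transcripts by TPM, the lengths of Ppm1k, Dbt and Ivd were 4369, 2963 and 2879 bases, the 3 longest among the members, and those of the other 7 ran from 1313 (Bckdhb) to 2192 (Mccc1). With prednisone in MI, the median change over all genes was -0.05 under 1000 bases, -0.26 from 1000 to 2000, -0.47 from 2000 to 4000, -0.67 from 4000 to 8000 and -0.69 beyond. Dbt at -0.67, Ivd at -0.43 and Ppm1k at -0.83 lay near the medians of their own length classes. In MI against sham under prednisone the corresponding class medians were -0.14 for 2000 to 4000 bases and -0.36 for 4000 to 8000, and Dbt, Ivd and Ppm1k at -0.91, -0.88 and -1.31 lay well below them. The correction given above also takes out the shift of each library as a whole. The part of transcript length alone in these falls was therefore not tested.

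**Figure D4:**
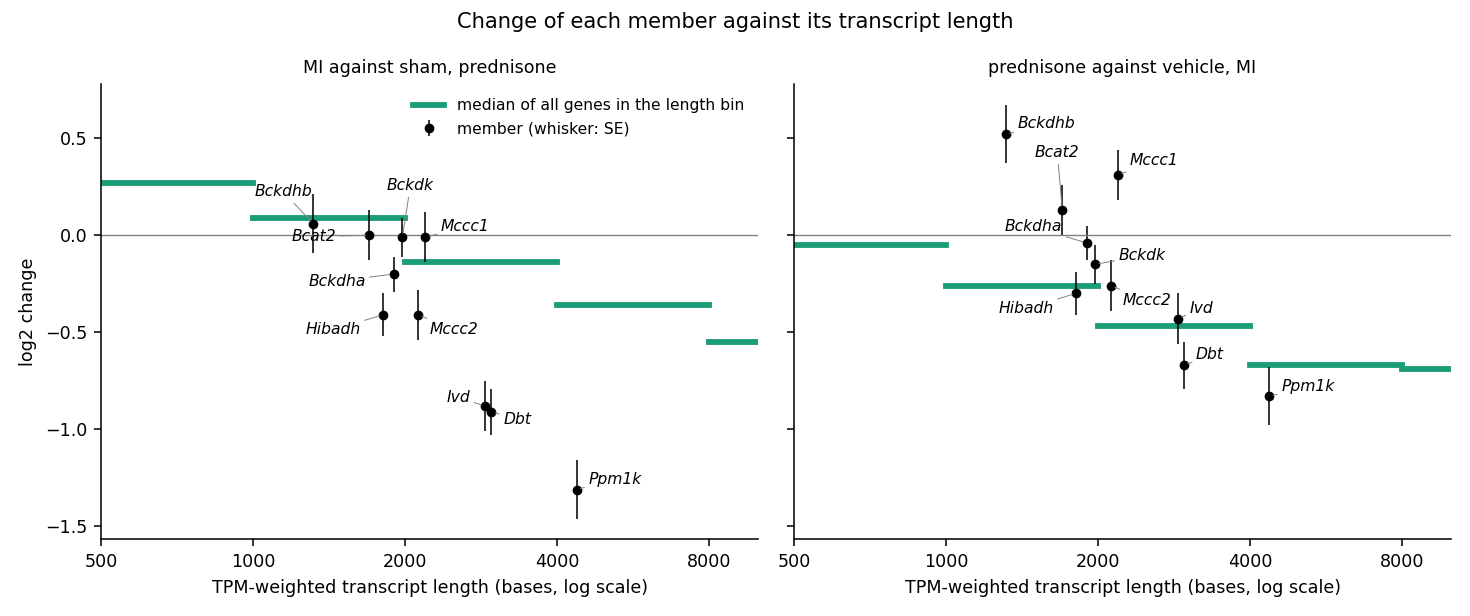
Log2 change of each member (vertical axes, whiskers SE) against its TPM-weighted transcript length in bases (horizontal log axes), with the median change of all genes in 5 length classes as green lines. Ppm1k, Dbt and Ivd lie well below the line of their class on the left and close to it on the right.

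In Mccc1, Bckdk, Bckdhb and Bcat2, transcripts of the same gene did not move together in the infarcted hearts given prednisone. With prednisone in MI, Ppm1k-201 (-0.48), Ppm1k-202 (-1.77), Ivd-206 (-1.36) and Ivd-207 (-1.28) were all called lower. Ivd-201 (-0.32), Ivd-203 (0.15), Ivd-204 (0.53) and Ivd-205 (0.41) were not called. The table lists 52 transcripts of the 10 genes, of which 32 passed the filter among 27769 transcripts tested. With prednisone against vehicle in MI, 4 were called higher, where 5.92% of all transcripts were, and 8 lower, where 27.1% were. In MI against sham under prednisone 3 were called higher (6.75% of all) and 8 lower (15.6% of all). The transcripts called higher were Mccc1-208, Bckdk-205, Bckdhb-203 and Bcat2-204 in the first comparison, and the same without Bckdhb-203 in the second. None of them is the most abundant transcript of its gene, and all are short forms from the 3′ side of it.

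Mccc1-208, annotated as a retained intron of 468 bases, changed most. It was at 0, 0.562 and 0 TPM in the sham vehicle mice, 1.41, 0 and 0 in the sham prednisone mice, 0, 0 and 0.0417 in the MI vehicle mice, and 21.1, 31.8 and 13.0 in the MI prednisone mice. All 3 MI prednisone mice were far above the other 9, and the log2 change against MI vehicle was 4.42 (SE 0.38, limma adjusted p = 5.76e-05). Over the same mice the full-length coding transcript, Mccc1-201, went from 35.1, 28.7 and 32.8 TPM to 16.8, 21.6 and 24.0, a change of -0.62 (SE 0.14, limma adjusted p = 0.00672). Mccc1-201 made 81.1% to 84.0% of the gene's TPM in the other 9 libraries and 38.6%, 36.0% and 54.9% in MI prednisone. The gene sum of Mccc1 thus joined a lower TPM of its main transcript to a higher TPM of a short one. Read coverage along the gene was not analysed here, and whether it differed between the libraries was not tested. Mitochondrially encoded RNA made 24.6% and 21.6% of MI prednisone replicates 1 and 2, where Mccc1-208 was highest, and 35.9% of replicate 3. It was 23.1% in MI vehicle replicate 3, where Mccc1-208 was at 0.0417 TPM, and 32.4% to 42.0% in the other 8 libraries, and its part in the transcript values was not tested.

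The 5′ part of Mccc1-208 is shown because it holds the only bases that set it apart from Mccc1-201. In GENCODE M21 (GRCm38), 105 of its 468 bases, at chr3:35961005-35961109 on the minus strand, lie in an intron of Mccc1-201 and stand in capitals, and the remaining 363 lie in exons of both. For Bckdhb-203, a processed transcript of 540 bases, the capitals are the 33 bases at chr9:84045887-84045919, plus strand, that are absent from the main transcript Bckdhb-206.
Mccc1-208, bases 1 to 177: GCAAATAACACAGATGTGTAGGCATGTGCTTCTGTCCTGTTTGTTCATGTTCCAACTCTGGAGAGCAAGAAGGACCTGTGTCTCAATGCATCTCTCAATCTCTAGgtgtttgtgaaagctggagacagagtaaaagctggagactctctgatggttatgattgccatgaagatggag
Bckdhb-203, bases 1 to 120: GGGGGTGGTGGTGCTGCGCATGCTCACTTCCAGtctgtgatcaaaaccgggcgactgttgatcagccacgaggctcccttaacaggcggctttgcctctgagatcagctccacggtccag

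Bckdhb-203 was at 3.27, 0 and 3.97 TPM in the sham vehicle mice, 0.875, 5.47 and 3.96 in the sham prednisone mice, 0, 1.39 and 1.94 in the MI vehicle mice, and 18.6, 16.6 and 2.89 in the MI prednisone mice. Of the MI prednisone mice, replicates 1 and 2 stood apart and replicate 3 was within the sham range. The change against MI vehicle was 2.53 (SE 0.78, limma adjusted p = 0.0289). Bckdhb-206 was at 22.5, 15.9 and 17.7 TPM in MI vehicle and 0.231, 15.0 and 17.0 in MI prednisone. In MI prednisone replicate 1 a near-identical coding transcript, Bckdhb-201, held 12.9 TPM, so the value of either alone is uncertain.

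The kinase showed the same kind of shift. Bckdk-205, an annotated coding form of 724 bases that all lie within Bckdk-202, was at 0 to 1.17 TPM in the other 9 libraries and at 14.1, 17.7 and 2.64 TPM in MI prednisone (log2 change against MI vehicle 2.96, SE 0.55, limma adjusted p = 0.00290). Bckdk-202, the main transcript, went from 29.4, 26.8 and 31.9 TPM in MI vehicle to 19.7, 17.9 and 25.0, a change of -0.49 (SE 0.14, limma adjusted p = 0.0230). At the other end of the gene, the retained-intron form Bckdk-203 went from 4.14, 4.77 and 6.44 TPM to 0, 0 and 1.10 (log2 change -2.24, SE 0.38, limma adjusted p = 0.00186). A form at the 5′ end of Ppm1k, Ppm1k-202, likewise went from 3.44, 4.63 and 2.43 TPM to 0, 0 and 1.15 (log2 change -1.77, SE 0.32, limma adjusted p = 0.00254). Bcat2-204, a nonsense-mediated decay form of 917 bases all shared with Bcat2-201, went from 0.361, 0 and 0.334 TPM to 3.51, 6.73 and 2.68 (log2 change 2.05, SE 0.35, limma adjusted p = 0.00186). For these transcripts with no base of their own, the split of reads rests on the authors' quantification.

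**Figure D5:**
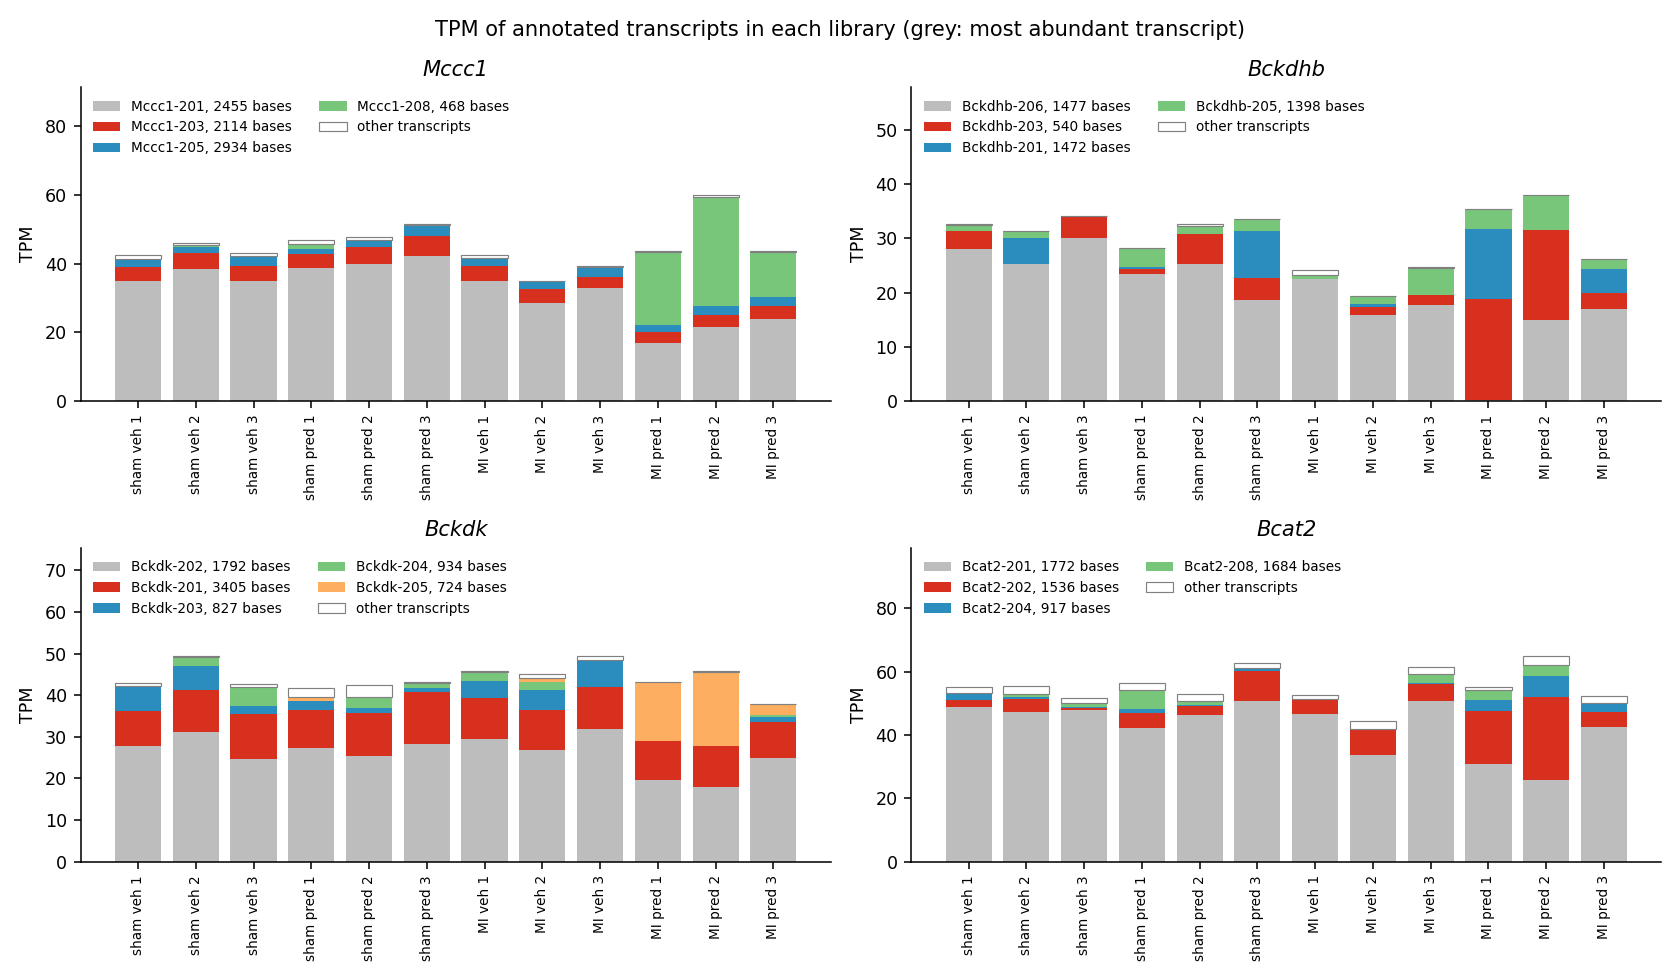
TPM (vertical axes) of the tested transcripts of Mccc1, Bckdhb, Bckdk and Bcat2, stacked for each of the 12 libraries (horizontal axes), with the most abundant transcript in grey and untested ones in white. The grey parts of Mccc1 and Bckdk are smaller in all MI prednisone than in all MI vehicle libraries, and those of Bckdhb and Bcat2 overlap. The short transcripts Mccc1-208, Bckdhb-203 and Bckdk-205 are higher in MI prednisone than in MI vehicle, least in replicate 3. There Bckdhb-203 is within the sham range.

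Counted over coding transcripts only, an alternative chosen after these values were seen, 7 members were called lower in MI against sham under prednisone (Bckdhb, Dbt, Ppm1k, Ivd, Mccc1, Mccc2 and Hibadh), where 20.8% of all genes were called. With prednisone in MI, 5 were called lower (Dbt, Ppm1k, Ivd, Mccc1 and Hibadh) and none higher, where 47.5% of all genes were called. For the interaction Mccc1 alone was called, at -0.77 (limma adjusted p = 0.0128), where 30.2% of all genes were called. Bckdha, Mccc2 and Hibadh drew 95.9% to 100% of their TPM from 1 transcript in every library, and their values did not depend on such a choice.

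Promoter windows of 250 bases before to 50 after the annotated start, from RefSeq (GRCm38.p6), were found for 9 of the 10 genes, in 11 windows. Those of Ppm1k (chr6:57535438-57535737, minus strand) and Ivd (chr2:118861744-118862043, plus strand) are shown, as members with a window whose gene sums were called lower in MI against sham under prednisone for TPM as deposited, after rescaling and with the length correction. Capitals mark matches to the Krüppel-like factor box CACCC or the core of the glucocorticoid response element, ACA and TGT with 3 bases between them.
Ppm1k: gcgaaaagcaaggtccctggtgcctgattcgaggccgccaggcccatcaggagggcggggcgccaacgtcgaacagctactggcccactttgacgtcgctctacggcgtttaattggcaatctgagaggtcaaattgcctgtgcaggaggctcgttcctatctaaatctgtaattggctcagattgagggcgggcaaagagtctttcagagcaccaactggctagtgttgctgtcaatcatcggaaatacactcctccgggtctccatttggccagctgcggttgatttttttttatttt
Ivd: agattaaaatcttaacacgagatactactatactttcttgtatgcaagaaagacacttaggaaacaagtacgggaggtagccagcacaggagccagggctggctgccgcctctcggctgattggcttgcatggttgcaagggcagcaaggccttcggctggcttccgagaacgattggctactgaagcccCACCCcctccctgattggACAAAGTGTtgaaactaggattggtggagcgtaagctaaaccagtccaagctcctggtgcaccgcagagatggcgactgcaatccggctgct

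Searched on both strands, CACCC was present in 7 of the 11 windows and in 57.5% of all 32851 windows in the table. The glucocorticoid response core was present in 2 of 11, in Ivd and in the second window of Bckdhb, and in 6.85% of all. The estrogen-related receptor motif AAGGTCA was present in 0 of 11 and in 4.72% of all. The Ppm1k window held none of the 3. These are matches of letters and not binding sites, and no motif overlapped another in the Ivd window.

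Other genes of the pathway were read from a list of 28, of which 27 were tested and Bcat1, the cytosolic aminotransferase, was not. In MI against sham under vehicle, where 16.0% of all genes were called, 2 were called higher, the amino acid transporter genes Slc43a2 at 1.07 (SE 0.31, limma adjusted p = 0.0422) and Slc3a2 at 0.85 (SE 0.24, limma adjusted p = 0.0392), and none lower. MI vehicle replicate 3 was the highest for both, with Slc43a2 at 6.67, 7.63 and 19.5 TPM and Slc3a2 at 26.5, 32.7 and 60.6 TPM in the MI vehicle mice. After rescaling neither was called (limma adjusted p = 0.0581 and 0.0561), and the list had 0 higher and 6 lower, where 7.44% of all genes were called. Under prednisone 9 were called lower and none higher in MI, where 16.8% of all genes were called and 14.1% lower. After rescaling 7 of the 27 were called, or 25.9%, against 26.0% of all genes, and with the length correction 4 of 23 were, or 17.4%, against 12.9%. The largest of these were the nuclear receptor Ppara at -1.87 and its coactivator Ppargc1a at -1.66, both regulators of mitochondrial fuel use, then Aldh6a1 of the valine route at -1.16, Acadsb of the isoleucine route at -1.13 and the methylmalonyl-CoA mutase gene Mut at -1.06. Their limma adjusted p ran from 0.00116 to 0.00224, and all 5 were also called after rescaling. By the most abundant transcript Ppara, Ppargc1a, Aldh6a1 and Mut were called and Acadsb was not, at -0.20. With coding transcripts only, Acadsb was at -1.93. The list's median was -0.26, against -0.06 over all genes, and after rescaling -0.15, against 0.03.

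With prednisone in MI, 2 genes of that list were called higher and 11 lower, with a median of -0.54 against -0.41 over all genes, of which 37.4% were called. The direction turned with the scale: after rescaling 5 were called higher and 2 lower, with a median of -0.09, and with the length correction 3 higher and 2 lower, with a median of 0.05, where 28.8% and 16.4% of all genes were called. On the TPM scale the higher ones were Mcee at 0.50 (SE 0.12, limma adjusted p = 0.00737) and Mmaa at 0.35 (SE 0.10, limma adjusted p = 0.0161), which both serve the propionyl-CoA route below valine and isoleucine. With coding transcripts only, Mcee was called at 0.52 and Mmaa was not, at 0.04. With the length correction Mmaa was called at 0.74 and Mcee was not, at 0.65 (limma adjusted p = 0.0504). By the most abundant transcript Mmaa was called at 0.37 and Mcee was not, at 0.26. Of the lower ones Ppara (-1.53), Slc43a2 (-1.46), Ppargc1a (-0.98), Aldh6a1 (-0.93) and Acadsb (-0.81) changed most, and of these Ppara and Slc43a2 were called after rescaling as well. By the most abundant transcript Ppara (-1.38) and Aldh6a1 (-0.93) were called, and Slc43a2 (-0.40), Ppargc1a (-0.07) and Acadsb (-0.05) were not. In sham hearts none of the 27 was called. Klf15 is a glucocorticoid-responsive factor known to control this pathway in the heart. It was at 12.1 to 18.5 TPM in MI vehicle and 9.34 to 12.7 in MI prednisone. The change was -0.54 (SE 0.21, limma adjusted p = 0.0563) and not called. With coding transcripts only it was called at -0.54 (limma adjusted p = 0.0438), and by the most abundant transcript at -1.27 (limma adjusted p = 0.0132). After rescaling it was -0.12 and not called. In MI against sham under prednisone Klf15 was not called, at -0.60 (limma adjusted p = 0.0689). By the most abundant transcript it was called there, at -1.45 (limma adjusted p = 0.00918).

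The E3 subunit Dld, shared with the pyruvate and 2-oxoglutarate dehydrogenases, was called at -0.76 in MI against sham under prednisone (SE 0.10, limma adjusted p = 0.00174), and at -0.65 after rescaling. Of the other subunits Dbt was called there, and Bckdha (-0.20) and Bckdhb (0.06) were not. Of 11 genes of the pyruvate dehydrogenase complex and its kinases and phosphatases, 9 were called lower in that comparison, with a median of -0.72, and of 16 citrate cycle genes 9 were, with a median of -0.41, against 16.8% of all genes called and 14.1% lower. After rescaling 4 of 11 and 3 of 16 were called lower, the latter being 18.8% against 26.0% of all genes, and with the length correction 3 of 10 and 1 of 15 were, against 12.9%. Among the regulators of the sister complex, the phosphatase genes Pdp1 (-0.90) and Pdp2 (-0.77) were called lower. So were Pdpr (-2.39), the gene of a regulatory subunit of the phosphatase, and the kinase genes Pdk1 (-0.78), Pdk2 (-0.41) and Pdk4 (-1.26). The kinase gene Pdk3 was at 0.34 and not called. After rescaling Pdp1, Pdp2, Pdpr and Pdk1 were still called, and Pdk2 (limma adjusted p = 0.261) and Pdk4 (limma adjusted p = 0.0663) were not. Of the pair Bckdk and Ppm1k, the phosphatase alone was called in that comparison.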

How the data were processed

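RNA of 12 mouse hearts was sequenced as stranded mRNA libraries, per the labels' protocols. The authors deposited TPM per transcript, with each library summing to 1000000, so the reads behind a value are unknown and precision rests on the spread between 3 mice. The submitters' processing notes name Trimmomatic, HISAT2, kallisto and the build mm10; their roles and the annotation release are not given in the sources used here. TPM are shares of a library, so a rise of abundant RNAs lowers the rest, and uneven coverage moves values between long and short transcripts.

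Transcripts were summed to genes by symbol, kept at 1 TPM or more in at least 3 libraries, transformed to log2(TPM + 1), which understates changes of low genes, and fitted with limma 3.58.1 (intensity trend, 4 group means) in R 4.3.3. An exact permutation test of 3 against 3 cannot go below p = 0.1, so limma alone was used. Positions and lengths came from GENCODE M21, in which 94.7% of transcript rows were found. The length correction subtracted a loess curve (span 0.5) against log10 length from each library. The curve was subtracted with its level, so the shift of the whole library was removed together with the length trend. The limma fit was tested on simulated data that held no library-wide shift and no length trend. The rescaling, length correction and transcript steps were not tested in this way. Members and lists were chosen with earlier results of these data known. All members are named with every library. Of the wider list, at most 5 called genes each way with a mean of at least 5 TPM are named. Klf15 and the untested Bcat1 are named outside this rule. Genes of the sister complex are named for their matching roles. Alternatives covered scaling, filter, pseudocount, transcript choice, block, trend, samples fitted, length and each mouse left out.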

Additional observations from a re-analysis of the deposited data

Results flagged for a closer look

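For 3 members the effect of prednisone differed between infarcted and sham hearts by the interaction term of limma. That term called 21.3% of all genes, 20.7% lower. The prednisone effect in MI minus that in sham was -0.73 for Dbt (log2, adjusted p = 0.0159), -0.81 for Ppm1k (adjusted p = 0.0263) and -0.60 for Ivd (adjusted p = 0.0406). Each was lower with prednisone in MI and close to 0 in sham hearts, where the changes were 0.05, -0.02 and 0.17. The median of this term over all genes was -0.48. It was -0.56 for genes of 2000 to 4000 bases, the class of Dbt and Ivd. For 4000 to 8000 bases, the class of Ppm1k, it was -0.78. After rescaling and after the length correction none of the 3 members was called.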

How the results depend on the processing

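Depth is unknown for TPM, so no counting error limits could be set, and with 3 mice a group small changes could not be called. The number of members called was 2, 4, 5, 0 and 3 in MI against sham under vehicle, the same under prednisone, prednisone against vehicle in MI, the same in sham, and the interaction. Of all genes 16.0%, 16.8%, 37.4%, 0.114% and 21.3% were called in the same order. For the first comparison 5 members were called with rescaling (7.44% of all genes) and 4 with length correction (5.31%). There was 1 with a pseudocount of 0.1 (16.3%), without the trend (15.3%) or by the most abundant transcript (4.72%). There were 0 without the filter (4.52%), with the replicate block (8.03%), with the block and length correction (0.589%), or with only the groups compared (0.0152%). For the second, 2 members were called with the block and length correction (7.92% of all genes) and 7 with coding transcripts only (20.8%). For the third, 3 members were called with rescaling (28.8% of all genes), with length correction (16.4%) or with the block and length correction (11.5%). With only the groups compared 0 were (6.14%). For the interaction, 0 members were called with length correction (2.04% of all genes) or with the block added (0.925%), and 1 with coding transcripts only (30.2%). In sham 0 members were called in all alternatives. With only the groups compared in the fit, 1 member was at an unadjusted p under 0.05, against 11.4% of all genes. Leaving out 1 mouse at a time gave 0 to 3, 3 to 5, 2 to 5, 0 to 0 and 1 to 5 members in the same order. The matching ranges over all genes are given in the next paragraph. The cause of these differences was not tested.

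The replicate numbers belong to different animals, and same-numbered mice did not deviate together (correlation of deviations from -0.58 to 0.14). The numbers therefore do not pair the samples. With the replicate block the members called were 0, 4, 5, 0 and 2. Of all genes 8.03%, 14.4%, 33.7%, 0.0532% and 17.9% were called with the block. Over all genes the calls in MI against sham under vehicle went from 2100 to 979 with rescaling, 1068 without the filter, 1056 with the block, 632 with length correction, 70 with both and 2 with only the groups compared. Under prednisone 2213 became 3417 with rescaling, 942 with block and length correction. For prednisone in MI 4917 became 1956 with length correction, 1368 with the block added and 808 with only the groups compared. In sham 15 became 7 with the block and 6 with block and length correction. For the interaction 2797 became 1323 with rescaling, 243 with length correction and 110 with the block added. Without 1 mouse the ranges were 120 to 5631, 1027 to 2630, 3245 to 6274, 4 to 9 and 1111 to 4520.

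Changes of sign, in log2, were as follows. With rescaling, prednisone in MI gave Bckdha 0.42, Bckdk 0.30, Ivd 0.03, Mccc2 0.18 and Hibadh 0.16. It gave in sham Bcat2 -0.01, Bckdha -0.06, Dbt -0.03 and Hibadh -0.02, and in the interaction Bckdha 0.48, Bckdk 0.47, Mccc2 0.28 and Hibadh 0.18. MI against sham gave Bckdk -0.38 under vehicle, and Bckdk 0.09 and Mccc1 0.10 under prednisone. With length correction, alone or with the replicate block, prednisone in MI gave Bckdha 0.33, Bckdk 0.23, Ivd 0.07, Mccc2 0.15 and Hibadh 0.05. It gave in sham Bckdha -0.02 and Dbt -0.03, and in the interaction Bckdha 0.35, Bckdk 0.36, Mccc2 0.22 and Hibadh 0.02. MI against sham gave Bckdk -0.38 under vehicle, and Bcat2 -0.06, Bckdhb -0.07 and Mccc1 0.04 under prednisone. By the most abundant transcript, MI against sham under prednisone gave Bcat2 -0.50 and Bckdhb -1.72, prednisone in MI gave Bcat2 -0.40, Bckdhb -1.46 and Mccc1 -0.62, prednisone in sham gave Bcat2 -0.06, and the interaction Bcat2 -0.35, Bckdhb -1.16 and Mccc1 -0.77. With coding transcripts only, MI against sham under prednisone gave Bcat2 -0.09, Bckdhb -0.43 and Bckdk 0.02, prednisone in MI gave Bckdhb -0.05, Bckdk 0.00 and Mccc1 -0.62, prednisone in sham gave Bckdk 0.02 and Ppm1k 0.02, and the interaction Bcat2 -0.07 and Mccc1 -0.77.

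Without 1 mouse, signs changed only for members that were not called. The ranges were -0.16 to 0.07 for Bcat2 and -0.10 to 0.00 for Hibadh in MI against sham under vehicle. Under prednisone they were -0.09 to 0.07 for Bcat2, -0.04 to 0.22 for Bckdhb, -0.07 to 0.06 for Bckdk and -0.16 to 0.07 for Mccc1. For prednisone in MI Bckdha ran from -0.09 to 0.01. In sham Bckdha ran from -0.03 to 0.06, Bckdhb from -0.10 to 0.02, Dbt from 0.00 to 0.16, Ppm1k from -0.09 to 0.08 and Mccc2 from -0.06 to 0.02. For the interaction Bcat2 ran from -0.07 to 0.16 and Bckdk from -0.13 to 0.01. The interaction call of Dbt held without each of the 12 mice, that of Ppm1k was lost without 6 of them and that of Ivd without 10.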
